A study of Mus musculus with 16 samples.

Results

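The 10 germ cell genes described here are Dazl, Ddx4, Dppa3, Pou5f1, Mael, Utf1, Nanos2, Nanos3, Dnmt3l and Cdh1, taken by gene name from a table of read counts for 47729 mouse genes. The table covers 16 RNA-seq libraries of fetal testis cells from C57/Bl6/129svJ mice. The animals carried Inhba x Oct4 GFP alleles. Inhba, intact in the wild type (WT) and lost in the knockout (KO), encodes the beta A subunit of activin A. Cells were taken at embryonic ages E13.5 or E15.5, in days, and each of the 4 groups (WT E13.5, KO E13.5, WT E15.5, KO E15.5) has 4 libraries. Per the labels, the mesonephros was removed from the gonads before they were dissociated, and viable GFP-negative cells were kept by FACS, so that germ cells, which carry the Oct4 GFP signal, were sorted away. All 16 libraries are labelled as the GFP-negative fraction. Oct4 is the older name of Pou5f1, so the gate itself bears on that gene. The labels do not say how the reporter or the knockout allele was built. The 10 genes were chosen by their counts in 1 library, KO E13.5 replicate 1, which was already known to hold them at high levels. Its values are therefore given apart and as a description, and the main tests use the other 15 libraries. A fit of all 16 is given only among the alternatives at the end.

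Fetal germ cells reach the gonad as primordial germ cells that still express pluripotency genes, and then switch on RNA-binding and transposon-silencing genes. In a testis they stop dividing as prospermatogonia, lose the pluripotency genes and rebuild DNA methylation, while in an ovary they enter meiosis. Sertoli cells, Leydig cells and interstitial stroma are the main somatic cells of the fetal testis and do not use this programme.

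The shallowest library, KO E13.5 replicate 3, had 6131592 counts and the deepest, WT E15.5 replicate 2, had 23324810. Levels are given as CPM, counts scaled to a common library size with TMM factors. Inhba lay between 45.4 and 104 CPM in WT E13.5, and between 4.13 and 8.31 CPM in KO E13.5. At E15.5 it was at 196 to 344 CPM in WT and 36.2 to 50.3 in KO. The KO libraries thus lay below the WT libraries of their age, and KO E13.5 replicate 1, at 4.13 CPM, was the lowest of its group. Somatic genes were also lower in that library, as given below. Their part in its Inhba level was not tested. The series design gives 3 to 4 animals per age and genotype. With 4 libraries in a group, 1 animal may have given more than 1 of them, which would make p-values too small.

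Promoter sequence was found for 8 of the 10 genes in RefSeq (GRCm38.p6), in windows of 250 bases before an annotated start. Dppa3 and Cdh1 have no entry. The 4 stretches below end before the first annotated exon base and are shown because Dazl and Pou5f1 kept a common ratio across several libraries while Mael did not, and because Nanos2 marks the male stage. They are given 5′ to 3′ on the gene's strand with each CG pair, the site of DNA methylation in mammals, in capitals.
Dazl, minus strand, chr17:50293637-50293870: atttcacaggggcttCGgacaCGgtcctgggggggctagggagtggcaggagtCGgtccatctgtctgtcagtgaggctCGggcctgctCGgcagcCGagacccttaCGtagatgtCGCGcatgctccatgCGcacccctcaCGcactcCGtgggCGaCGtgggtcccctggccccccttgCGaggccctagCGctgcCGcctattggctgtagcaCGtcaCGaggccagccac
Mael, minus strand, chr1:166238748-166238994: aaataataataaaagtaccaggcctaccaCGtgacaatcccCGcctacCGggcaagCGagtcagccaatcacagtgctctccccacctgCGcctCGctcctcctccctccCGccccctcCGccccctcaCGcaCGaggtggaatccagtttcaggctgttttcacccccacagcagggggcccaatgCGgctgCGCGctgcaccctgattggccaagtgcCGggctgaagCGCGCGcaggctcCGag
Pou5f1, plus strand, chr17:35505782-35506017: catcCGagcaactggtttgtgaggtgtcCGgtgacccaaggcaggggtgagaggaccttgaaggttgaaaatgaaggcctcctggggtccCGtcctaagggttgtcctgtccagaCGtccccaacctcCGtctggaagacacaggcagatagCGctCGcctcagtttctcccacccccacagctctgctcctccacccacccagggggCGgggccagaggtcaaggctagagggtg
Nanos2, plus strand, chr7:18987274-18987399: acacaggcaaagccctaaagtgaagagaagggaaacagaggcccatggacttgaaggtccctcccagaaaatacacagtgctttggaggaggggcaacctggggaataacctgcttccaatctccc
The Dazl stretch holds 19 CG pairs, the Mael stretch 18, the Pou5f1 stretch 8 and the Nanos2 stretch 0. In the whole windows of 250 bases Ddx4 had the most, 31, against a median of 6 over 32817 windows of all genes, and 5.20% of windows held at least as many. Dazl had 20, a number reached by 17.9% of windows. The hexamer CACGTG, which reads the same on both strands, was in the windows of Ddx4 and Mael, in 1 window of Dnmt3l, and in 6.02% of all windows. GCGGGA, on either strand, was in those of Ddx4 and Mael and in 16.9% of all. The motifs were searched as these letters only, and a match is not a binding site.

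KO E13.5 replicate 1 held 81527 reads of the 10 genes, 0.351% of its counts (exact binomial 95% interval 0.349 to 0.354, counting error only). Their summed level was 3872 CPM there and 6.29 to 30.0 CPM in the other 15 libraries. In bulk RNA, more cells of a type and more RNA per cell cannot be told apart. Each of the 10 genes was at least 4-fold above the mean of KO E13.5 replicates 2 to 4, as were 5.32% of 26113 genes with at least 20 reads over all libraries, and each was above all 15 others, as were 28.8% of genes. These values chose the genes, and nothing is read from the counts.

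Set per kilobase of exon, which allows levels to be compared between genes, Dppa3 came first in KO E13.5 replicate 1 at 1221 CPM per kb. Dppa3 (Stella) protects maternal methylation marks after fertilisation and marks primordial germ cells. Dazl, an RNA-binding protein needed for germ cells to take on their gonadal programme, followed at 419 CPM per kb. Utf1, a chromatin protein of pluripotent cells, was at 147, Ddx4 (Vasa), a germ cell RNA helicase, at 132 and Mael, of the piRNA pathway that silences transposons, at 108. Cdh1 (E-cadherin), a cell adhesion protein of germ cells and epithelia, was at 53.7 and the pluripotency factor Pou5f1 at 53.0. Nanos3, which keeps primordial germ cells alive, stood at 31.0 and Nanos2, which sets the male germ cell fate, at 14.9. Dnmt3l, a cofactor of new DNA methylation in prospermatogonia, was last at 0.556. The order is a description of 1 library, in which the spread between replicates is unknown.

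The distance to the other libraries also differed between genes. Dppa3 was at 1089 CPM in KO E13.5 replicate 1 and at most 5.84 CPM elsewhere, a 187-fold gap, and Dazl was at 1599 CPM against at most 8.80, a 182-fold gap. Pou5f1 stood at 119 CPM, 146-fold over the highest other library. For Cdh1 the gap was 68.3-fold (246 CPM), for Nanos2 56.1-fold (23.2 CPM), for Utf1 54.3-fold (180 CPM), for Ddx4 45.8-fold (398 CPM), for Mael 34.0-fold (187 CPM) and for Nanos3 28.2-fold (28.6 CPM). Dnmt3l differed from the rest: 35 reads (exact Poisson 95% interval 24.4 to 48.7), 1.66 CPM, were only 2.60-fold above WT E15.5 replicate 4, at 0.639 CPM. The pseudogene Dppa3-ps had 1706 reads in KO E13.5 replicate 1 and at most 12 elsewhere, and since it resembles Dppa3, reads of the pair can be misassigned. The same limit holds for Dnmt3l, whose pseudogene Dnmt3l-ps1 had 34 reads in KO E13.5 replicate 1 and 12 to 57 in the other libraries. Exons of Pou5f1, Nanos2 and Dnmt3l overlap Gm19553, Gm45058 and Aire on the other strand, and the counts do not use strand.

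**Figure D1:**
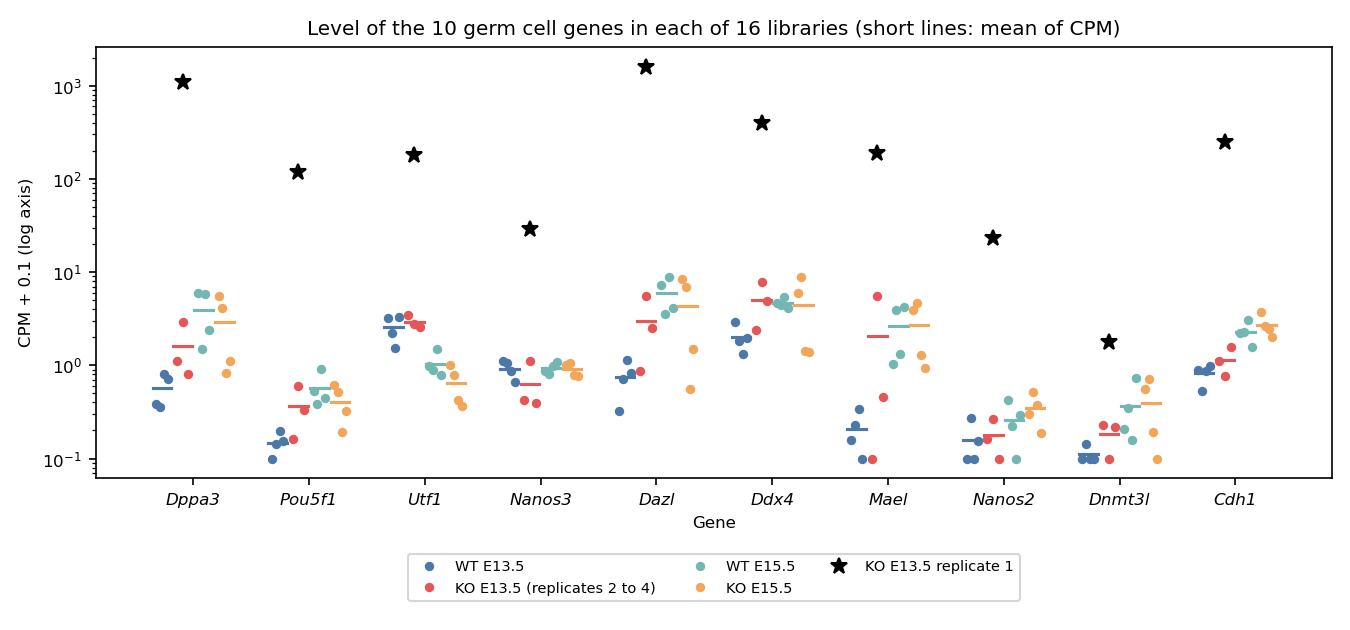
CPM plus 0.1 on a log axis for the 10 genes in 16 libraries, 1 point per library, with a short line at the mean CPM of the group and a star for KO E13.5 replicate 1. The star lies above every other point for each gene, by 187-fold for Dppa3 and by 2.60-fold for Dnmt3l.

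Gene lists of germ cell stages were read in this library. By share of genes raised, 3 lists led. Of 20 pluripotency and primordial germ cell genes 18 were at least 4-fold above the mean of KO E13.5 replicates 2 to 4, of 16 genes that germ cells switch on in the gonad all 16 were, and of 12 measured fetal male germ cell genes 11 were. These lists hold 9 of the 10 genes. Where the reference mean was below 3 reads per library it was set to that floor. Over the 3 lists together 45 of 48 genes passed, and 45 to 47 did so when the scaling or the reference libraries were changed. Without the genes chosen for their level in this library, 14 of 16 pluripotency genes, 13 of 13 gonadal genes and 9 of 10 male genes passed, 36 of 39 in all, beside 5.32% of all genes. The lists too were chosen with earlier results of these data known, so these counts are a description. The minimum of 20 reads also counted this library's own. Dppa2, Prdm14 and Tdgf1 had 302, 357 and 197 reads here, of 319, 368 and 211 over all 16 libraries, and reached the minimum only through this library. The measured numbers of 11 postnatal spermatogonial genes, 4 genes of spermatocytes and spermatids and 16 of meiotic entry that passed were 4, 2 and 9. By summed level in this library the order differed. The meiotic and spermatogonial lists stood at 917 and 551 CPM, above the 520 CPM of the male list.

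The pluripotency genes were present as a set. Dppa5a, a KH-domain protein of pluripotent cells, was at 333 CPM per kb in KO E13.5 replicate 1, and its 206 CPM compare with 0 to 1.2 CPM in the other 15 libraries. Ifitm3 (Fragilis), a membrane protein of early germ cells, was at 99.4 CPM per kb, and its 67.4 CPM compare with 6.31 to 21.9 CPM elsewhere. Nanog, a core pluripotency factor, was at 39.0 CPM against 0.0952 to 0.758 CPM elsewhere. Of the gonadal genes, Stk31, a Tudor domain kinase of germ cells, stood at 127 CPM per kb (410 CPM), next to Dazl, Ddx4 and Mael. Without the chosen genes, 16 of 16 pluripotency genes and 13 of 13 gonadal genes were at their highest in this library, as were 28.8% of all genes. These counts are likewise a description.

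Genes of the male pathway were lower but above the other libraries. Lefty2 and Lefty1, secreted inhibitors and targets of Nodal signalling, were at 76.8 and 33.6 CPM against at most 19.5 and 1.05 CPM elsewhere. Tex15, which works with the piRNA pathway, was at 22.4 CPM per kb, and its 215 CPM compare with 24.2 to 116 CPM elsewhere. Piwil4 (Miwi2), the Piwi protein of prospermatogonial nuclei, had 480 reads, 22.8 CPM, against 0.0586 to 1.83 CPM elsewhere. The last genes of that list were near the floor there. Dnmt3l had 35 reads, Spocd1, a partner of Piwil4, had 20 reads at 0.95 CPM, inside the range of 0 to 0.998 CPM of the other libraries, and Ctcfl had 5 reads.

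Meiotic genes were uneven. The cohesin subunits Smc1b and Stag3 were at 77.8 and 50.6 CPM per kb, and the synaptonemal complex genes Syce2 and Sycp1 at 44.0 and 26.5. Syce2 was also well detected elsewhere, at 86.6 CPM here against 19.3 to 32.6, and at 3.89-fold it did not reach 4-fold. Smc1b also had the highest fold of this list, 136-fold over the mean of KO E13.5 replicates 2 to 4. Stra8, the gene that starts meiosis in response to retinoic acid, had 34 reads (23.5 to 47.5), 1.61 CPM or 0.896 CPM per kb. Figla, an oocyte transcription factor, had 2 reads. Among spermatogonial genes Uchl1 (88.7 CPM per kb), Sohlh2 (47.1), Etv5 (34.5) and Lhx1 (17.7) led, whereas Gfra1, the receptor of spermatogonial stem cells, had 13 reads at 0.617 CPM, below the 1.27 to 4.92 CPM of the other libraries. Lhx1 was at 72.2 CPM against 0 to 0.491 CPM elsewhere, and Etv5 at 142 CPM against 28.8 to 66.4. Of the late genes, Ldhc, Piwil1, Tnp1 and Prm2 were highest per kb, from 2.25 down to 0.159, and Piwil1 was at 5.18 CPM against at most 0.319 elsewhere. Tnp2, Pgk2, Acr and Odf1 had no reads. By these lists the profile was that of gonadal germ cells with the pluripotency genes on and the male genes Nanos2, Lefty1, Lefty2 and Piwil4 detected, with several meiotic genes, Smc1b and Stag3 among them, present as well. Stra8 and Dnmt3l had few reads, and of the late genes Piwil1 (109 reads) and Ldhc (75) were detected while 4 had none.

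**Figure D2:**
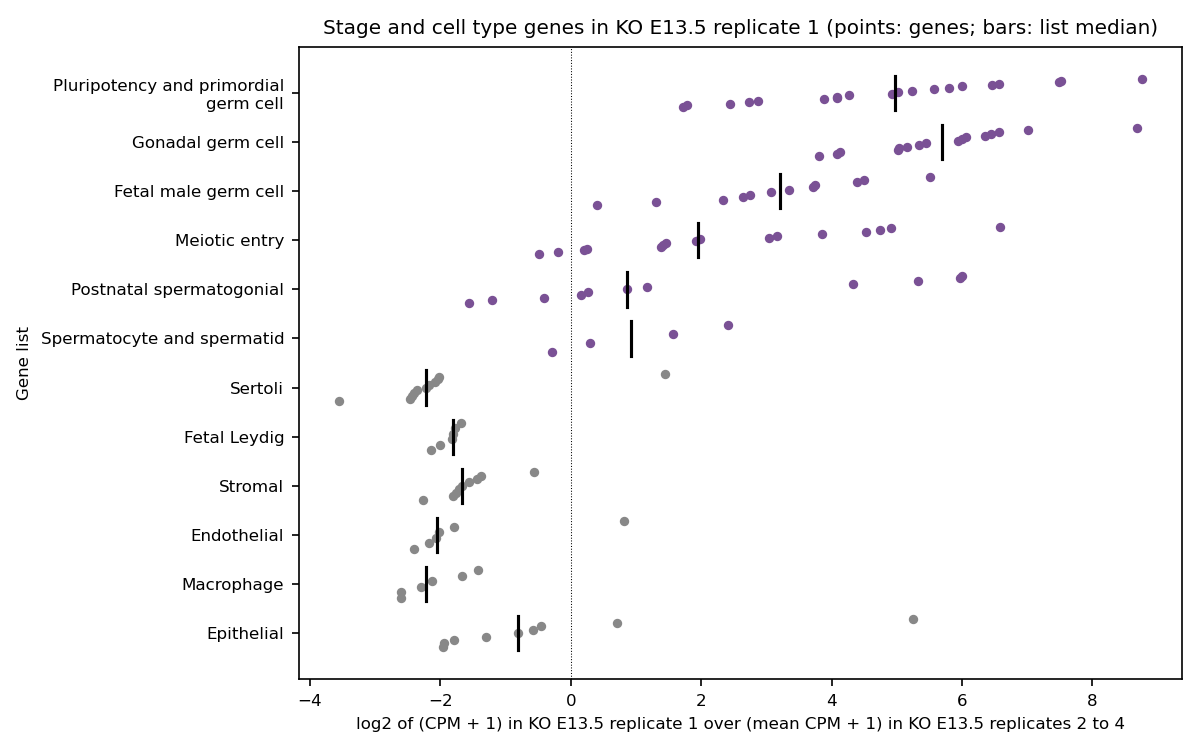
Log2 ratio of CPM plus 1 in KO E13.5 replicate 1 to the mean of KO E13.5 replicates 2 to 4 plus 1, with 1 point per measured gene and a bar at the list median. Medians run from 5.69 for gonadal germ cell genes and 4.98 for pluripotency genes to -2.22 for Sertoli genes.

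Somatic genes were lower in KO E13.5 replicate 1 but not absent. The 11 Sertoli genes summed to 517 CPM there and to 1149 to 2815 CPM in the other 15 libraries, and 10 of them were at least 4-fold below the mean of KO E13.5 replicates 2 to 4, as were 5.30% of all genes. Sox9, which directs Sertoli cell fate, was at 45.4 CPM against 87.9 to 284. The remaining Sertoli gene, Dmrt1, which germ cells also express, was higher, at 43.8 CPM against 9.22 to 18.5. The 6 Leydig genes summed to 393 CPM against 858 to 3175, the 9 stromal genes to 1290 against 3140 to 7457, and the 6 macrophage genes to 7.27 against 29.3 to 113. For the 6 endothelial genes the sums were 140 and 136 to 375 CPM, but 4 of them were at least 4-fold below the mean of KO E13.5 replicates 2 to 4. Pecam1 alone was higher than in all other libraries, at 80.3 CPM against 14.6 to 63.4, and this value is part of the 140 CPM. Of 9 epithelial genes Epcam alone was at least 4-fold higher, at 168 CPM against 2.55 to 6.29, while Krt8 and Krt18, the keratins of simple epithelia, were at 4.08 and 5.37 CPM. Xist, the RNA of X inactivation, was at 19.3 CPM against 0.389 to 1.57, and the Y-linked genes Eif2s3y, Ddx3y, Uty and Kdm5d were at 142, 56.0, 78.6 and 85.9 CPM. Sry, which starts testis formation in somatic cells, had no reads there and at most 0.832 CPM elsewhere. What brought the germ cell transcripts into this library was not tested.

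Genes of DNA methylation and cell division were also uneven there. Tet1, which oxidises methylated cytosine, was at 1287 CPM (83.2 per kb) against 179 to 249 CPM in the other libraries, and the maintenance enzyme Dnmt1 at 498 CPM against 220 to 310. Dnmt3a, a new-methylation enzyme, was lower, at 239 CPM against 435 to 555. Of the other Tet genes, Tet3 was lower, at 48.6 CPM against 159 to 231. Tet2, at 233 CPM, lay inside the range of 230 to 402 elsewhere. Of 14 cell cycle genes, Top2a and Ccnb1, both of dividing cells, were at 2220 and 247 CPM against 823 to 1296 and 42.7 to 69.7. The cell cycle inhibitors were mixed. Rb1 and Cdkn2b were higher, at 230 and 4.04 CPM against 34.3 to 51.5 and 0 to 0.699, as was Cdkn1a, at 20.5 against 3.55 to 10.7. Cdkn1b was lower, at 19.5 CPM against 31.8 to 41.7. Cdkn1c, at 98.8 CPM, lay inside the range of 61.4 to 227 elsewhere. Ccnd2 was lower, at 73.3 CPM against 208 to 499. At least 4-fold above the mean of KO E13.5 replicates 2 to 4 were 3 of the 14, and 1 was at least 4-fold below. The shares over all genes were 5.32% and 5.30%. Mki67 was at 1518 CPM, inside the range of 1225 to 2098 elsewhere.

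In the other 15 libraries the 10 genes were low. Summed levels were 6.29 to 8.30 CPM in the 4 WT E13.5 libraries and 9.01, 26.6 and 12.8 CPM in KO E13.5 replicates 2 to 4. They were 23.2, 17.4, 27.2 and 18.7 CPM in WT E15.5, and 30.0, 29.7, 7.48 and 7.71 CPM in KO E15.5. The WT groups do not overlap, while the KO E15.5 libraries split into a pair near 30 CPM and a pair at the WT E13.5 level. The titles of the higher pair, replicates 1 and 2, share a leading number, and KO E15.5 replicate 3 shares one with WT E15.5 replicate 2, which the labels do not explain.

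Tests used edgeR's quasi-likelihood test on 20406 genes in 15 libraries, and called means a Benjamini-Hochberg adjusted p under 0.05. Pou5f1, Nanos2 and Dnmt3l did not pass the filter on low counts, which left 7 of the 10 genes. Values are log2 fold changes with their standard error (SE). In WT testes 4 of the 7 were called higher at E15.5 and 1 lower, beside 12.1% and 10.7% of all genes tested. Their median was 1.61, against 0.02 over all genes.

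Dazl was at 0.226, 0.605, 1.05 and 0.724 CPM in WT E13.5 and at 7.25, 3.43, 8.80 and 3.98 CPM in WT E15.5. All 4 older libraries lay above all 4 younger ones, and Dazl rose by 3.13 (SE 0.75, edgeR adjusted p = 0.0067). Dppa3 went from 0.282, 0.259, 0.714 and 0.613 CPM to 5.84, 1.40, 5.77 and 2.31 CPM, also without overlap, and rose by 3.01 (SE 0.68, adjusted p = 0.00466). In both genes WT E15.5 replicates 1 and 3 were the higher pair. With both left out, an alternative added after the values were seen, Dazl and Dppa3 lost the call at 2.47 (adjusted p = 0.0639) and 1.96 (adjusted p = 0.0853).

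Mael showed the opposite pair. It was at 0.0565, 0.13, 0 and 0.238 CPM in WT E13.5 and at 0.927, 3.84, 1.22 and 4.08 CPM in WT E15.5, where replicates 2 and 4 were higher. It rose by 4.43 (SE 1.13, edgeR adjusted p = 0.00965), and by 5.05 (adjusted p = 0.00896) with replicates 1 and 3 left out. Cdh1 was at 0.79, 0.432, 0.762 and 0.892 CPM at E13.5 and at 2.13, 2.19, 2.97 and 1.47 CPM at E15.5, without overlap, and rose by 1.61 (SE 0.32, adjusted p = 0.00177). Ddx4 was at 1.24 to 2.82 CPM and then 4.03 to 5.25 CPM, a difference of 1.26 (SE 0.51) that was not called (adjusted p = 0.0863).

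Utf1 went the other way. It was at 3.11, 2.12, 1.43 and 3.23 CPM in WT E13.5 and at 0.873, 0.785, 1.40 and 0.688 CPM in WT E15.5. The groups do not overlap, though their nearest libraries, at 1.43 and 1.40 CPM, almost meet, and Utf1 fell by 1.40 (SE 0.36, edgeR adjusted p = 0.0107). Nanos3, at 0.557 to 1.02 CPM and 0.702 to 0.983 CPM, gave 0.01 (SE 0.35, adjusted p = 0.99). With no filter on low counts, Pou5f1 (0, 1, 2 and 1 reads in WT E13.5, 8, 7, 14 and 7 in WT E15.5) and Dnmt3l (0, 1, 0 and 0 reads, then 2, 6, 1 and 13) were also called, with adjusted p of 0.00834 and 0.0333. The few Dnmt3l reads carry the limit from its pseudogene given above. Nanos2 had 0 to 4 and 0 to 6 reads and was not called (adjusted p = 0.46).

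The same age step in KO testes called 1 gene higher and 1 lower, beside 10.4% and 10.9% of all genes. Cdh1 was at 1.02, 0.666 and 1.47 CPM in KO E13.5 replicates 2 to 4 and at 3.60, 2.55, 2.33 and 1.92 CPM in KO E15.5. It rose by 1.22 (SE 0.35, edgeR adjusted p = 0.0206), but the call was lost without KO E13.5 replicate 2 (adjusted p = 0.0703), KO E13.5 replicate 3 (0.0648) or KO E15.5 replicate 1 (0.0666). Utf1 was at 3.32, 2.66 and 2.46 CPM and then at 0.913, 0.69, 0.319 and 0.267 CPM, without overlap, and fell by 2.39 (SE 0.41, adjusted p = 0.00103). Utf1 kept its call in each of the 15 fits with 1 library left out, in both genotypes.

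The other genes spread widely within the KO groups. Dazl was at 0.767, 5.49 and 2.40 CPM in KO E13.5 and at 8.32, 6.83, 0.456 and 1.38 CPM in KO E15.5, overlapping fully, with a change of 0.69 (SE 0.77, edgeR adjusted p = 0.555). Dppa3, at 1.02, 2.83 and 0.703 CPM and then 5.43, 4.00, 0.73 and 1.02 CPM, gave 1.05 (SE 0.72, adjusted p = 0.318). Mael was at 0, 5.49 and 0.352 CPM and then at 3.86, 4.56, 1.19 and 0.846 CPM. Its change of 0.76 (SE 0.99, adjusted p = 0.617) rested on KO E13.5 replicate 3: without that library, the shallowest of all, it was 3.77 and called (adjusted p = 0.0267), and Nanos3 went from 0.81 (adjusted p = 0.198) to 1.37 (adjusted p = 0.04). Ddx4 gave -0.18 (SE 0.55, adjusted p = 0.847).

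The age effects of the 2 genotypes were also compared directly, a contrast added after the age results were seen. None of the 7 genes was called in edgeR, beside 0.0294% of genes higher and 0.0588% lower, and none of 7 with an adjusted p in DESeq2; at unadjusted p under 0.05 edgeR gave 2 and DESeq2 4. Dazl differed by -2.45 (SE 1.07, adjusted p = 0.668) and Mael by -3.66 (SE 1.55, adjusted p = 0.651). A different age course in the KO was therefore not shown for any of them.

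**Figure D3:**
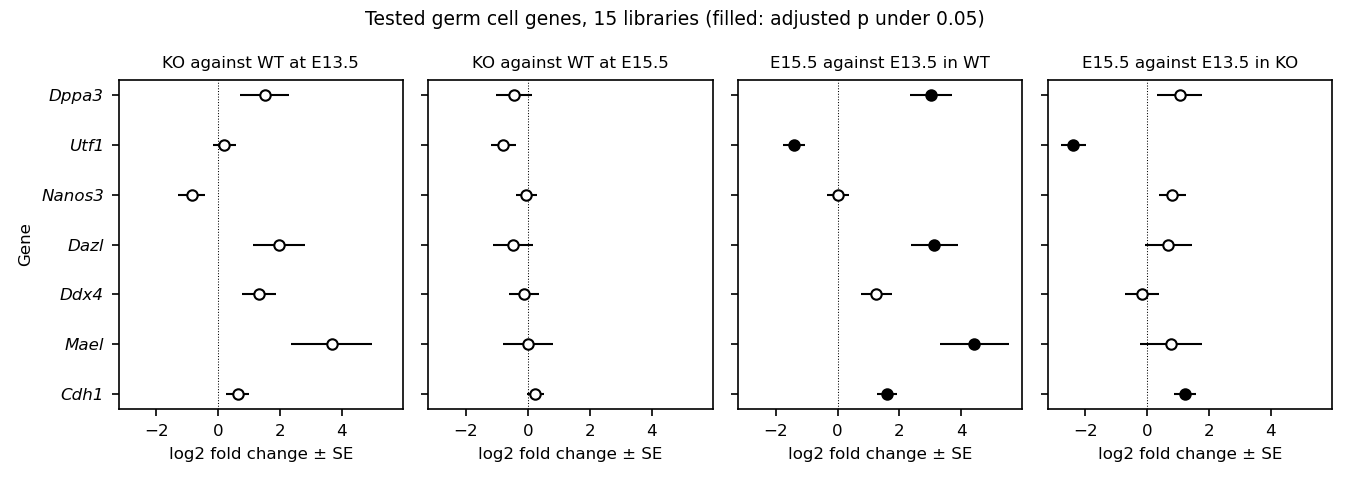
Log2 fold change with SE for the 7 tested genes in 4 comparisons of 15 libraries, with filled points for an adjusted p under 0.05 in edgeR. Filled points appear in the age comparisons alone: Cdh1 and Utf1 in both genotypes, and Dazl, Dppa3 and Mael in WT.

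KO against WT gave no call among the 7 genes at either age. At E13.5 the background was 0% higher and 0.0049% lower, and 1 gene was called in all, against 165 in DESeq2, which called none of the 6 genes of the set that it gave an adjusted p. At unadjusted p under 0.05 edgeR gave 3 of 7 genes and DESeq2 5 of 10. Dazl was higher in KO by 1.97 (SE 0.85, edgeR adjusted p = 0.37), Ddx4 by 1.32 (SE 0.56, adjusted p = 0.363) and Mael by 3.68 (SE 1.31, adjusted p = 0.286), values that do not pass. Without KO E13.5 replicate 3 they were 1.27, 0.91 and 0.67. At E15.5 the background was 0.637% higher and 0.862% lower, with 306 genes called, and the 7 genes ran from -0.79 for Utf1 (SE 0.41, adjusted p = 0.464) to 0.25 for Cdh1. None of them was under an unadjusted p of 0.05 in edgeR or DESeq2.

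Other germ cell genes of the lists were tested in the same fit, and the counts below stand beside 12.1% of all genes called higher and 10.7% lower in WT, and 10.4% and 10.9% in KO. Of 14 tested pluripotency genes 5 were called higher and 1 lower at E15.5 (Utf1), with Sall4, a zinc finger factor, at 3.06 (SE 0.74, edgeR adjusted p = 0.00709) and Dppa4 at 3.28 (adjusted p = 0.0199). The others were Dppa3, Alpl and Ifitm3, the last at 1.01. Alpl and Ifitm3 are also expressed by somatic cells. Of 14 gonadal genes 4 were called higher and 0 lower, Mov10l1, an RNA helicase of the piRNA pathway, at 4.08 (adjusted p = 0.00924) and Stk31 at 1.93 (adjusted p = 0.0328) beside Dazl and Mael. Of 9 male genes 3 were called higher, Morc1, which helps silence transposons, at 3.67 (adjusted p = 0.0194), Tex15 at 1.37 and Lefty2 at 1.39, and Nodal was called lower at -1.12 (adjusted p = 0.0464). Tex15 was at 24.2 to 116 CPM in the 15 libraries against 215 in KO E13.5 replicate 1, and Lefty2 at 2.83 to 19.5 against 76.8. Dazl, by contrast, was at most 8.80 against 1599. Which cells gave the Tex15 and Lefty2 reads was not tested.

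Meiotic and spermatogonial genes went otherwise in WT. Of 12 tested meiotic genes 2 were called higher, Smc1b at 0.91 and Stag3 at 0.56, and 2 lower, the homeobox genes Msx1 at -2.24 and Msx2 at -1.68. Of 8 spermatogonial genes 0 were called higher and 3 lower, Etv5 at -0.77, Bcl6b at -0.96 and Id4 at -0.65. In KO E13.5 replicate 1, Bcl6b, Id4, Msx1 and Msx2, at 2.75, 12.0, 0.997 and 0.855 CPM, lay inside the ranges of the other 15 libraries. Etv5 was at 142 CPM there against 28.8 to 66.4. Smc1b and Stag3 were at 315 and 290 CPM against at most 4.80 and 18.1. The cells behind these changes were not tested.

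In KO the counts were 1 higher (Ifitm3) and 1 lower (Utf1) of 14 pluripotency genes, 0 of 14 gonadal genes, and 1 higher of 9 male genes (Tex15). Of the meiotic genes Stag3 was called higher and Msx1 lower, and 4 of 8 spermatogonial genes (Etv5, Id4, Bcl6b and Gfra1) were called lower. None of the gonadal genes was under an unadjusted p of 0.05 in edgeR there. Somatic markers moved over the same step. In WT 8 of 11 Sertoli genes were called lower, their sum going from 1817 to 2310 CPM to 1149 to 1663 CPM, and all 6 macrophage genes higher, from 29.3 to 36.0 CPM to 54.0 to 113 CPM. In KO 8 Sertoli genes were called lower and 1 macrophage gene, Fcer1g, higher. The part of these changes in the germ cell values was not tested.

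The low levels did not keep 1 set of ratios between genes. The measure was each gene's CPM as a percentage of its CPM in KO E13.5 replicate 1, for 23 fetal germ cell genes with at least 10 CPM there and at least 100-fold over the median of the other 15. In WT E15.5 replicate 1, Dazl was at 0.453%, Dppa3 at 0.536%, Pou5f1 at 0.366% and Mael at 0.496%, and in WT E15.5 replicate 3 at 0.551%, 0.53%, 0.685% and 0.654%. These 4 genes thus stood near 1 common fraction in that pair, but the 23 genes did not all do so. Over the 23 the percentages ran from 0 to 1.41% in WT E15.5 replicate 1 (median 0.527%). In WT E15.5 replicate 3 they ran from 0 to 2.16% (median 0.565%). In WT E15.5 replicate 2 the first 3 genes were at 0.214%, 0.129% and 0.243% but Mael at 2.05%, and in replicate 4 at 0.249%, 0.212% and 0.289% with Mael at 2.18%. KO E15.5 replicates 1 and 2 had Dazl at 0.52% and 0.427%, with Mael at 2.06% and 2.44%. Morc1 went with Mael: it was at 2.24% and 4.02% in WT E15.5 replicates 2 and 4, 3.42% and 3.90% in KO E15.5 replicates 1 and 2, and 3.00% in KO E13.5 replicate 3, but 0.787% and 1.05% in WT E15.5 replicates 1 and 3.

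Counted in reads, Mael made up 10.5% of the Mael and Dazl reads in KO E13.5 replicate 1 (exact binomial 95% interval 10.2 to 10.8). In WT E15.5 replicates 1 and 3 the share was 11.3% (6.74 to 17.5) and 12.2% (7.72 to 18.1), and in replicates 2 and 4 it was 52.8% (45.2 to 60.4) and 50.6% (42.7 to 58.5). These intervals cover counting error only, and the pairs were picked because they differed. In KO E15.5 replicates 1 to 4 the share was 31.7%, 40.0%, 72.2% and 38.0%, and in KO E13.5 replicates 3 and 4 it was 50% and 12.8%. The split between the WT E15.5 libraries was seen in the data and was not tested.

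The ratio of Utf1 to Dazl also varied. It made up 10.1% of the Utf1 and Dazl reads in KO E13.5 replicate 1 (9.83 to 10.4), but 57.7% to 93.2% in the WT E13.5 libraries, which had 4 to 22 Dazl reads and 30 to 58 Utf1 reads. In WT E15.5 the share was 10.7% to 18.6%, and in KO E15.5 replicates 1 to 4 it was 9.89%, 9.17%, 41.2% and 16.2%. At E13.5, outside KO E13.5 replicate 1, Utf1 was thus more abundant relative to Dazl than in that library.

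**Figure D4:**
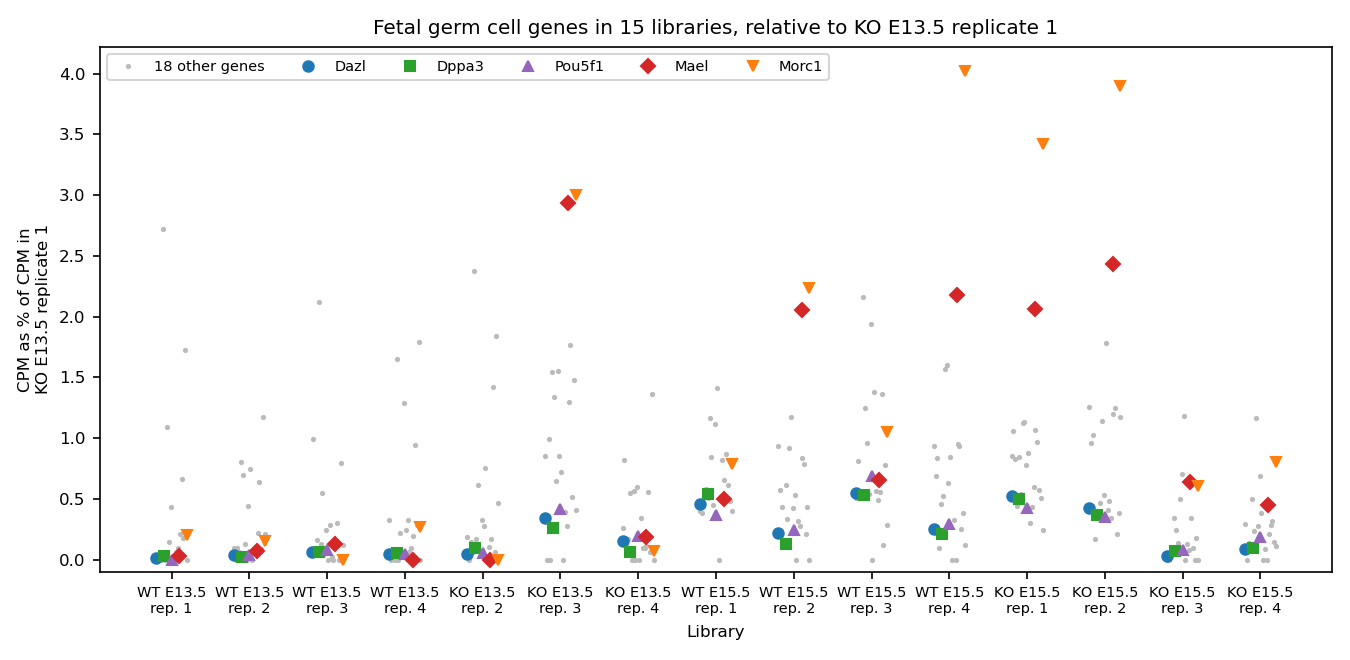
CPM of 23 fetal germ cell genes in 15 libraries as a percentage of the CPM in KO E13.5 replicate 1, with 5 genes marked and the other 18 in grey. Mael (2.05% to 2.94%) and Morc1 (2.24% to 4.02%) exceed 2% in 5 libraries, where Dazl is at most 0.52%, and they also lie above Dazl in KO E15.5 replicates 3 and 4, at lower levels.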

How the data were processed

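RNA of 16 libraries was counted per gene. The table deposited by the authors holds raw read counts, named as non-stranded. The submitters' processing notes name the build GRCm38 and list STAR 2.5.2b, featureCounts, Subread 1.5.2, Picard 2.9.0, FastQC 0.11.5 and MultiQC 1.0. Identifiers were matched to the GENCODE annotation of that build (47310, 99.1%), which also gave exon lengths. CPM used TMM effective library sizes from all 16 libraries. Tests used edgeR 4.0.16 in R 4.3.3 (filterByExpr with a minimum count of 10, TMM, glmQLFit, Benjamini-Hochberg at 0.05 over all genes) on 15 libraries in 4 groups, without KO E13.5 replicate 1. The code was tested on simulated data. Alternatives were all 16 libraries, RLE size factors, no filter or a minimum count of 50, DESeq2 1.42.0, libraries of 1 age only, KO E15.5 replicates 1 and 2 summed, and each library left out.

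The 10 genes, the lists and the rule for named genes (the 4 highest per kb in each germ cell stage list in KO E13.5 replicate 1, genes called, and a few defining markers) were chosen with earlier results of these data known. Genes named from the somatic, DNA methylation and cell cycle lists did not follow the rule in full and are a selection. The direct comparison of the age effects and the fit without WT E15.5 replicates 1 and 3 were chosen after seeing the data. Labels do not say that libraries are separate animals, so p-values measure the spread between these libraries. Spocd1, Ctcfl, Figla, Gfra1, Krt8, Dppa2, Prdm14, Tdgf1, Dppa3-ps, Dnmt3l-ps1 and the late genes without reads were named after their values were seen.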

Additional observations from a re-analysis of the deposited data

Results flagged for a closer look

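In groups of 4 libraries the highest or lowest one was compared with the gap to its neighbour, a measure that chance alone passes in about 1 of 20 groups. Of 44 groups, 12 were marked, 11 of them by KO E13.5 replicate 1 as the highest library. Those 11 marks were fixed by the choice of the genes, so the chance rate does not bear on them and they are no test. That library held Dazl at 1599 CPM, Dppa3 at 1089, Ddx4 at 398, Cdh1 at 246, Mael at 187, Utf1 at 180, Pou5f1 at 119, Nanos3 at 28.6, Nanos2 at 23.2 and Dnmt3l at 1.66, and the 10 genes summed to 3872 CPM. The other mark was Dnmt3l in WT E13.5 replicate 2, at 0.0432 CPM, which is 1 read where the other WT E13.5 libraries had none.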

How the results depend on the processing

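No paired analysis was possible because the replicate numbers follow accession order and pair nothing between groups. A leading title number that the labels do not explain ties KO E15.5 replicate 3 with WT E15.5 replicate 2, a single pair. Counts of called genes that moved by over 1.5 times were as follows. KO against WT at E13.5 gave 1 gene, 7 with no filter, 165 in DESeq2 and 1 to 2 with 1 library left out. KO against WT at E15.5 gave 306 genes, 30 with all 16 libraries, 639 in DESeq2, 171 with libraries of that age only, 112 without WT E15.5 replicates 1 and 3, and 162 to 362 with 1 library left out, the lowest without KO E15.5 replicate 4 and 173 without WT E15.5 replicate 1. Age in WT gave 4655, 1364 with all 16 and 3243 to 5227 with 1 left out, and age in KO 4350 and 2491 to 4748, the lowest without KO E13.5 replicate 4. The difference of the age effects gave 18, 4 with all 16, 29 with no filter, 66 in DESeq2, 11 with KO E15.5 replicates 1 and 2 summed, 6 without WT E15.5 replicates 1 and 3, and 4 to 25 with 1 left out. The summed level in KO E13.5 replicate 1 was 3512 CPM by total counts, 3626 without Cdh1 and 2663 without Dppa3 and Pou5f1.

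With all 16 libraries the age change in KO turned negative for Dazl (-6.59), Dppa3 (-6.64), Cdh1 (-4.59), Mael (-4.24) and Nanos3 (-3.27). Ddx4, already negative in the main fit, went to -4.63. Of the 7 tested genes 6, with Utf1 and without Mael, were called lower in edgeR. That fit includes the library whose levels chose these genes, so a fall from KO E13.5 was set by the choice and these calls are no test. In the fit of all 16 libraries none of the 5 calls in WT held (edgeR adjusted p 0.204 to 0.57) although the log2 fold changes stayed at 1.61 for Cdh1, 3.13 for Dazl, 4.43 for Mael, 3.00 for Dppa3 and -1.40 for Utf1. Nanos3 turned to 3.23 in KO against WT at E13.5 and to -3.28 in the difference of the age effects. Other changes of sign were in values that were not called. At E15.5 KO against WT without WT E15.5 replicates 1 and 3, Dazl was 0.19, Ddx4 0.0078, Dppa3 0.59 and Mael -0.61, and with KO E15.5 replicates 1 and 2 summed Mael was -0.27. With 1 library left out, the values there ran from -0.70 to 0.21 for Ddx4, -0.38 to 0.35 for Mael and -0.14 to 0.060 for Nanos3. For age they ran from -0.15 to 0.11 for Nanos3 in WT, which was -0.0073 with no filter, and from -0.77 to 0.23 for Ddx4 in KO. In all, 730 of the values for single genes kept sign and side of the threshold, 30 changed sign, 10 lost a call and 6 gained one, some of them with a changed sign. The cause was not tested. Depth limits Pou5f1, Nanos2 and Dnmt3l, which had at most 14 reads in any of the 15 libraries.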

Other observations

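Outside the lists, the genes with at least 50 CPM in KO E13.5 replicate 1 that stood farthest above the other 15 libraries were Trim71, Usp26, Cpeb1, Ap3b2, Uba1y, Rpl39l, Esrp1, Tuba3a, L1td1 and Trap1a. Trim71, an RNA-binding protein of embryonic cells, was at 323 CPM against at most 2.83. Usp26, an X-linked ubiquitin protease, was at 209 CPM against at most 1.66, and Uba1y, a Y-linked ubiquitin-activating enzyme, at 114 CPM against at most 0.816. L1td1, an RNA-binding protein of pluripotent cells, was at 182 CPM against at most 2.57. The 10 log2 ratios ran from 5.66 to 6.40.

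Over the 15 other libraries, the 5 genes whose log2 CPM ran most like the mean of the 10 genes, among 16709 compared, were Asb13, Gmpr2, Tex14, Tmem109 and Nbas, with Pearson r from 0.827 to 0.869. The libraries share ages and depths, and the r values describe the choice and are not tested. Of the 5, Tex14, a component of germ cell bridges, was at 543 CPM in KO E13.5 replicate 1 against 2.81 to 10.2 elsewhere. Asb13, Gmpr2 and Tmem109 were lower there than in any other library, at 2.56, 21.1 and 8.31 CPM.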
